A study of Homo sapiens with 12 samples.

Results

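A set of 10 transcripts of lysosomal proteolysis were followed through the series: 8 cathepsins (CTSA, CTSB, CTSC, CTSD, CTSH, CTSL, CTSS and CTSZ) and 2 cystatins (CST3 and CSTB). They were chosen by gene symbol and are 10 of the 29607 genes in the deposited table. The choice used no measured value, but the list was drawn up with earlier results of these data known. All RNA was taken from KMS11, a myeloma line of human origin long kept in culture, and 12 libraries make up 6 groups of 2. The tested groups were cells with hairpin sh1 against STK17B, cells with a second hairpin (sh2), cells labelled WT that received an STK17B inhibitor, and cells overexpressing STK17B from a cDNA. They were set against cells with an empty vector (Vector) and cells with a control hairpin (shControl), both labelled WT and untreated. The labels give neither the inhibitor's name, dose and time nor whether replicates were grown apart, so p-values measure the spread between these libraries, which may be technical. The series text says that inhibitor cells carried the control hairpin and mentions a vehicle arm, but no group carries that label, so effects of the solvent and of the inhibitor cannot be told apart. STK17B encodes a serine/threonine kinase related to the death-associated protein kinases, and the study's title links it to ferroptosis and drug resistance.

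Cathepsins are proteases that work mainly in the acid interior of the lysosome. They are made as inactive precursors, tagged with mannose 6-phosphate in the Golgi, sorted to the endolysosomal system and activated there by cleavage. CTSB, CTSL, CTSS, CTSZ, CTSC and CTSH are cysteine proteases of the papain family, CTSD is an aspartic protease and CTSA a serine carboxypeptidase. Cystatins are tight-binding inhibitors of the papain family: CST3 encodes the secreted cystatin C, and CSTB the mainly intracellular cystatin B. Cells of the B lineage use lysosomal proteases to process antigen and the invariant chain of MHC class II.

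The genes lie apart in the genome (GENCODE 29, GRCh38), all annotated as protein coding. CTSA (chromosome 20, 45890144 to 45898820, plus strand), CTSZ (chromosome 20, 58995185 to 59007247, minus) and CST3 (chromosome 20, 23626706 to 23638473, minus) share a chromosome. CTSC (88293592 to 88337787, minus) and CTSD (1752752 to 1764573, minus) are both on chromosome 11. CTSB is on chromosome 8 (11842524 to 11869448, minus), CTSH on chromosome 15 (78921058 to 78949574, minus), and CTSL on chromosome 9 (87725519 to 87731393, plus). CTSS is on chromosome 1 (150730196 to 150765957, minus) and CSTB on chromosome 21 (43772511 to 43776445, minus). The span of CTSA overlaps PLTP on the opposite strand, which reached at most 32.4 TPM, and that of CTSD overlaps the annotated protein-coding gene AC068580.4 on its own strand, so counts of both are uncertain to that extent. The labels call the libraries stranded but do not say how strand was counted.

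The values are TPM, a unit that corrects for transcript length and scales each library to the same total, so levels can be set side by side between genes. Sequencing depth is unknown. Between 11672 and 12353 genes reached 1 TPM in a library, and all 10 members did so in all 12 libraries. The columns of the 2 control groups carry only the numbers 1 and 9. They were taken as shControl and Vector because the library numbers in the labels match, which is an inference, and values with the columns exchanged are given for the hairpins, the inhibitor and overexpression. STK17B stood at 12.7 and 10.9 TPM with sh1 and 14.7 and 14.5 TPM with sh2, against 27.1 and 27.4 TPM in shControl. It stood at 94.1 and 84.5 TPM with overexpression, against 28.2 and 31.5 TPM in Vector, and at 24.9 and 22.4 TPM with the inhibitor. In bulk RNA, fewer cells of a type and less RNA per cell cannot be told apart.

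Promoter sequences are shown because many lysosomal genes carry the E-box CACGTG, the core of the element bound by the transcription factor TFEB and its relatives. RefSeq windows of 300 bases (GRCh38.p14, 250 before to 50 after the start site) were matched for 7 of the 10 members. On either strand, CACGTG occurred in 2 of the 7, CTSA and CTSD, and in 7.26% of 35116 promoters. The longer form GTCACGTG, which contains it, occurred in the same 2 and in 2.403% of promoters. Its palindromic form, the CLEAR palindrome, occurred in none of the 7 and in 0.353% of promoters. The interferon-stimulated response element (ISRE) was also in none of the 7, against 3.57% of promoters. The 70 bases before the RefSeq start site are printed 5′ to 3′ for CTSA and CTSD and for the 2 other cathepsins with the largest hairpin differences, CTSZ and CTSL, with CACGTG in capitals:
CTSA (chr20:45891265-45891334, plus strand): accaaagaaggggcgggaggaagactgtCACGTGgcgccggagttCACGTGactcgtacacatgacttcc
CTSD (chr11:1763928-1763997, minus strand): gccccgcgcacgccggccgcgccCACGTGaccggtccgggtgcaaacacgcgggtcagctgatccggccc
CTSZ (chr20:59007255-59007324, minus strand): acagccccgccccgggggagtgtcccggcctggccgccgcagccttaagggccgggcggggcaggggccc
CTSL (chr9:87726049-87726118, plus strand): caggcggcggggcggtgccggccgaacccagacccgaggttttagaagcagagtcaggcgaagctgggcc
CTSA holds 2 copies in this stretch and CTSD 1. CTSZ and CTSL, which differed more than CTSD between hairpin and control cells, hold none in the window, and a match describes letters only.

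The members spanned a wide range of levels. CSTB was the most abundant, between 739 and 1067 TPM over the 12 libraries, and CTSB the most abundant protease, between 183 and 592 TPM. CTSA (118 to 261 TPM), CTSC (111 to 153 TPM), CTSH (113 to 153 TPM), CST3 (84.2 to 158 TPM) and CTSD (80.7 to 125 TPM) formed a middle tier. CTSS (27.5 to 49.3 TPM), CTSL (13.9 to 32.9 TPM) and CTSZ (4.14 to 23.9 TPM) were the lowest. Together the 10 transcripts made up between 0.159% and 0.219% of all transcripts, lowest in shControl and highest with overexpression. The 7 members CTSA, CTSB, CTSD, CTSL, CTSS, CTSZ and CST3 had their lowest group mean in shControl. CTSA, CTSD, CTSL, CTSS and CTSZ had their highest with sh1, CTSB and CST3 with overexpression, CTSC with sh2, and CTSH and CSTB with the inhibitor.

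**Figure D1:**
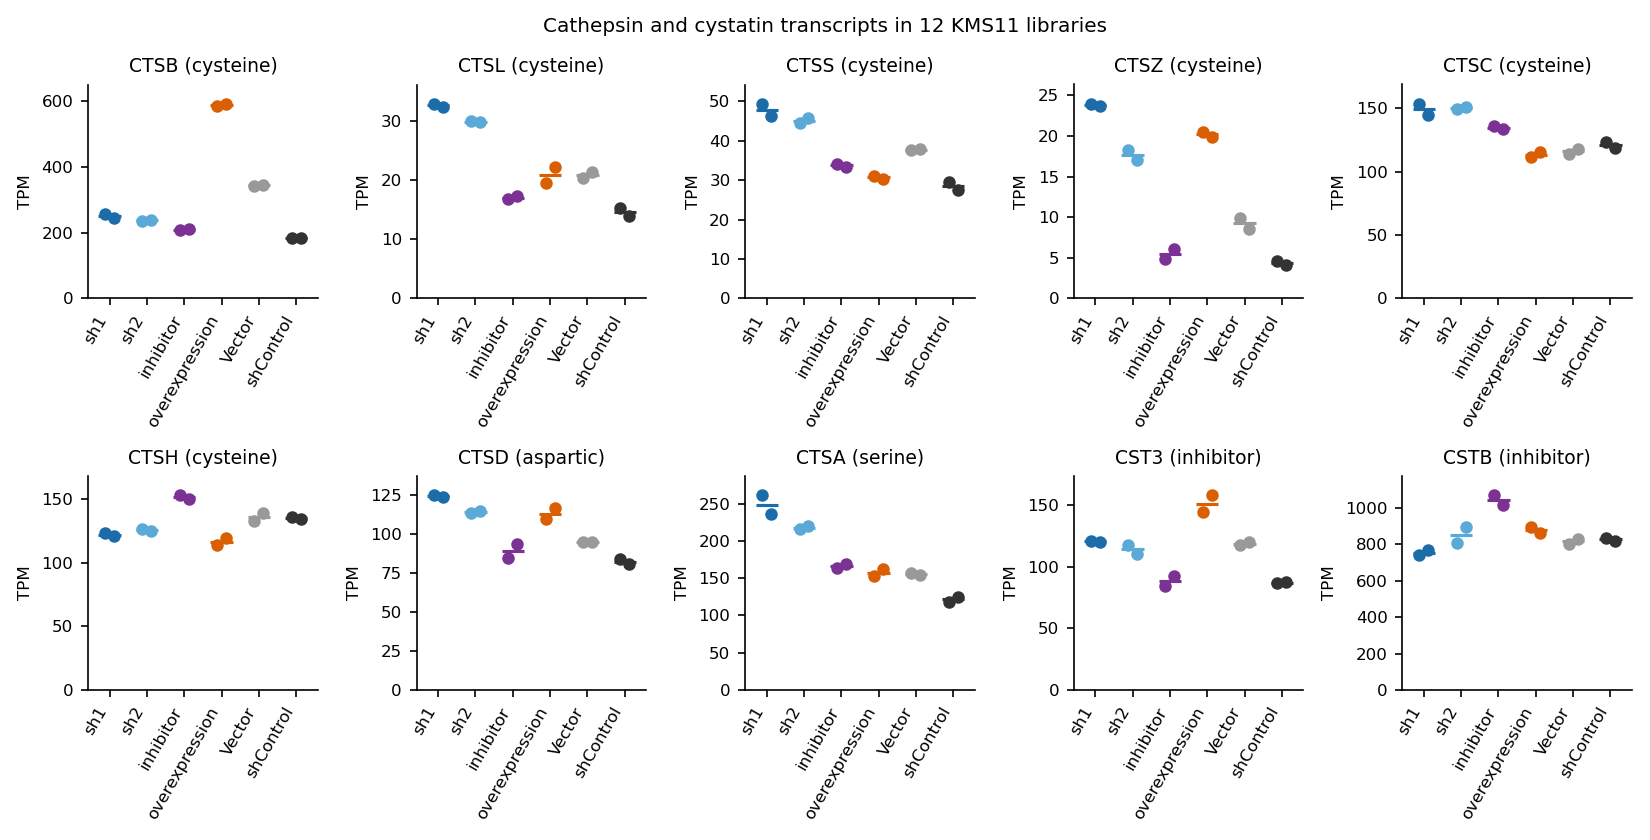
TPM (linear axis from 0) of each member in the 12 libraries, with 1 point per library and a line at the group mean (n = 2). CTSB peaks with overexpression at 584 and 592 TPM, CTSZ with sh1 and overexpression, and CSTB with the inhibitor.

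Lowering STK17B with hairpins went with more transcript of most cathepsins. In the mean of sh1 and sh2 against shControl, 7 cathepsins and CST3 were higher, CTSH was lower and CSTB did not pass. Differences are on the log2(TPM + 1) scale, and a call is an adjusted p below 0.05 from limma over 12731 tested genes. These 8 higher and 1 lower of 10 members compare with 26.2% of all tested genes called higher and 20.2% lower. The median difference of the members was 0.48, against 0.03 over all genes.

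Among the endopeptidases of the papain family, CTSL and CTSS rose with both hairpins. CTSL, a broad-acting endopeptidase, had 32.9 and 32.4 TPM with sh1 and 30.0 and 29.9 TPM with sh2, against 15.4 and 13.9 TPM in shControl. Every hairpin library lay above both shControl libraries (difference 1.05, SE 0.057, adjusted p = 1.4e-06). Hairpin and shControl libraries were without overlap, in either direction, for 57.8% of all tested genes. CTSS, which trims the invariant chain during class II loading, had 49.3 and 46.2 TPM with sh1 and 44.4 and 45.6 TPM with sh2, against 29.5 and 27.5 TPM in shControl. The groups did not overlap (0.68, SE 0.039, adjusted p = 1.8e-06). CTSB, which acts as endopeptidase and carboxydipeptidase, had 257 and 246 TPM with sh1 and 236 and 239.9 TPM with sh2, against 185 and 183 TPM in shControl. It rose by less than CTSL and CTSS, again without overlap (0.41, SE 0.024, adjusted p = 2.0e-06).

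Among the exopeptidases the largest and the opposite differences were found. CTSZ, a carboxypeptidase also called cathepsin X, had 23.9 and 23.7 TPM with sh1 and 18.3 and 17.0 TPM with sh2, against 4.59 and 4.14 TPM in shControl. That is 4.01-fold on the scale of the fit (2.003, SE 0.085, adjusted p = 3.3e-07), the largest difference of any member. CTSC, which activates granule serine proteases, had 153 and 145 TPM with sh1 and 149 and 151 TPM with sh2, against 123 and 119 TPM in shControl. Its rise was small and without overlap, as for 57.8% of all tested genes in either direction (0.30, SE 0.032, adjusted p = 6.1e-05). CTSH, mainly an aminopeptidase, had 123 and 121 TPM with sh1 and 127 and 125 TPM with sh2, against 136 and 134 TPM in shControl. It fell by 0.12 (SE 0.029, adjusted p = 0.0071), and the call was lost without shControl replicate 1 (-0.11, adjusted p = 0.061).

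The proteases outside the papain family rose too. CTSA, which also protects the lysosomal sialidase and beta-galactosidase, had 261 and 236 TPM with sh1 and 216 and 219.6 TPM with sh2, against 118 and 124 TPM in shControl (0.93, SE 0.042, adjusted p = 4.4e-07). All 4 hairpin libraries stood above the highest library of any other group, 169 TPM. CTSD, the main aspartic protease of lysosomes, had 125 and 124 TPM with sh1 and 114 and 115 TPM with sh2, against 83.9 and 80.7 TPM in shControl (0.53, SE 0.042, adjusted p = 1.2e-05).

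The 2 inhibitors parted. CST3 had 121 and 120.0 TPM with sh1 and 118 and 111 TPM with sh2, against 86.3 and 87.4 TPM in shControl. It rose by 0.43 (SE 0.046, adjusted p = 7.3e-05), without overlap, as for 57.8% of all tested genes in either direction. CSTB had 739 and 766 TPM with sh1 and 809 and 893 TPM with sh2, against 832 and 819 TPM in shControl. The CSTB groups overlapped, and the difference of -0.05 had a 95% interval of -0.14 to 0.05 (adjusted p = 0.39).

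The other control group changed part of this picture. With the control columns exchanged, so that hairpins were set against the libraries taken as Vector, 6 members were higher and 2 lower, where 18.6% of all genes were higher and 29.4% lower. CTSZ (1.07), CTSA (0.58), CTSL (0.56), CTSC (0.36), CTSD (0.32) and CTSS (0.29) were still called higher and CTSH (-0.13) lower. CTSB turned round to -0.49 (SE 0.024, adjusted p = 9.2e-07), and CST3 stood at -0.015 (adjusted p = 0.81). The rise of CTSB and CST3 with the hairpins thus held against shControl and not against the other control.

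Each hairpin alone gave nearly the same calls. With sh1, 8 members were higher (23.7% of all genes) and 2 lower (21.3%), and with sh2, 8 were higher (22.0%) and 1 lower (13.4%), where 35.5% of all genes were called in either direction. Of all genes called with sh2, 62.2% were higher, against 48.7% with median-of-ratios scaling. CSTB was lower with sh1 (-0.13, adjusted p = 0.043), a call lost without either sh1 library or either shControl library (-0.11 to -0.16). CSTB with sh2 did not pass (0.04, 95% interval -0.06 to 0.15). CTSH was lower with sh2 (-0.10, adjusted p = 0.043), a call lost without either sh2 or either shControl library (-0.09 to -0.11). Both comparisons share the shControl libraries.

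Set directly against each other, sh2 and sh1 gave no call among the members with limma, against 1.55% of all genes (1.16% higher), and 5 members had an unadjusted p below 0.05. Of all calls between the hairpins 75.1% were higher with sh2, against 52.6% with median-of-ratios scaling. The nearest to a call was CTSZ, with 18.3 and 17.0 TPM for sh2 and 23.9 and 23.7 TPM for sh1. Its difference was -0.41 (95% interval -0.64 to -0.19, adjusted p = 0.070), and it was called only when genes under 5 TPM were left out (adjusted p = 0.049). CTSA followed, with a difference of -0.19 (95% interval -0.30 to -0.08, adjusted p = 0.088).

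**Figure D2:**
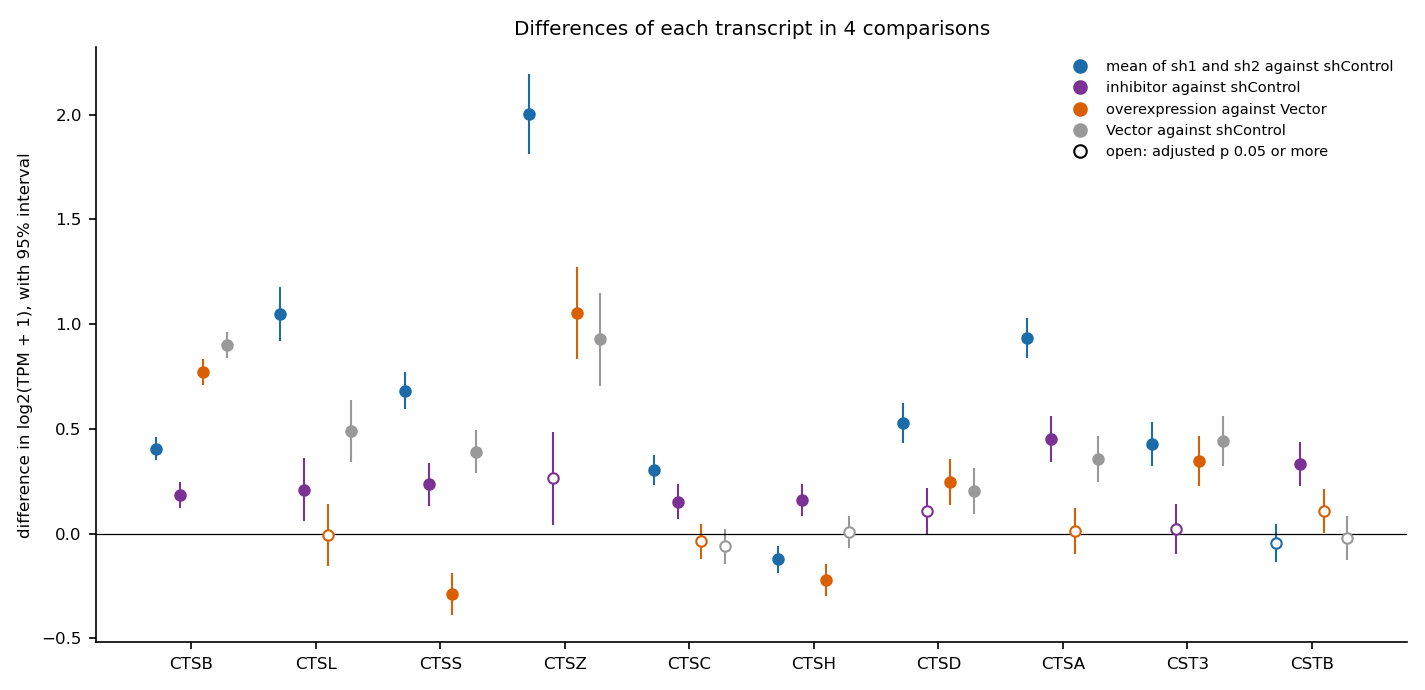
Difference in log2(TPM + 1) for each member in 4 comparisons, with 95% intervals from the fit, and open points where the adjusted p was 0.05 or more. CTSZ has the largest hairpin difference (2.003), and the Vector against shControl differences of CTSZ (0.93) and CTSB (0.90) stand above those of the other members.

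With the inhibitor the members moved little. A total of 7 of 10 were higher than in shControl (28.0% of all genes) and none lower (11.8%, and 39.9% in either direction), but the largest difference was 0.45 and the median 0.20, against 0.08 over all genes. CTSA had 163 and 169 TPM with the inhibitor, against 118 and 124 TPM in shControl (0.45, SE 0.049, adjusted p = 1.3e-04). CSTB had 1067 and 1015 TPM with the inhibitor, against 832 and 819 TPM in shControl (0.33, SE 0.047, adjusted p = 5.5e-04). Those 2 libraries were the highest of all 12 for CSTB.

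Smaller differences followed for the cysteine cathepsins. CTSS had 34.1 and 33.3 TPM with the inhibitor, against 29.5 and 27.5 TPM in shControl (0.24, SE 0.045). CTSB had 208 and 211 TPM, against 185 and 183 TPM (0.18, SE 0.028), and CTSH had 153 and 149.6 TPM, against 136 and 134 TPM (0.16, SE 0.034). CTSH was thus higher with the inhibitor and lower with the hairpins. CTSC was at 0.15 (136 and 133 TPM with the inhibitor, against 123 and 119 TPM in shControl) and CTSL at 0.21 (16.9 and 17.3 TPM, against 15.4 and 13.9 TPM). The differences of CTSZ (0.26, adjusted p = 0.058), CTSD (0.11, adjusted p = 0.11) and CST3 (0.02, adjusted p = 0.78) did not pass.

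These inhibitor calls depended on scale and on the control. With median-of-ratios scaling, and likewise with quantile scaling, CTSA, CTSB, CTSS and CSTB were called, 4 of 10, where 34.9% and 31.8% of all genes were called. Of all called genes 70.3% were higher on the deposited scale, 53.0% with median-of-ratios scaling and 51.9% with quantile scaling. CTSL lost its call without either inhibitor library (0.19 and 0.23) and without shControl replicate 2 (0.14). CTSC lost its call without shControl replicate 2 (0.13) or inhibitor replicate 1 (0.14). CTSZ passed without inhibitor replicate 1 (0.41, adjusted p = 0.012), as did CTSD (0.18, adjusted p = 0.018). With the control columns exchanged, CTSC (0.21), CTSH (0.15) and CSTB (0.35) were higher, and CTSB (-0.72), CTSZ (-0.66), CST3 (-0.42), CTSL (-0.28) and CTSS (-0.16) were lower. CTSC, CTSH and CSTB were therefore the members called higher with the inhibitor against either control on the deposited scale, with the losses just given for CTSC and CTSH.

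The inhibitor and the hairpins can be compared with each other without a control. All 10 members differed (52.6% of all genes were called), 2 higher with the inhibitor (30.9%) and 8 lower (21.6%). CTSZ had 4.82 and 6.13 TPM with the inhibitor, against 17.0 to 23.9 TPM in the 4 hairpin libraries (-1.74, SE 0.085, adjusted p = 5.25e-07). CTSL was at -0.84, CTSA at -0.48, CTSS at -0.45, CTSD at -0.42, CST3 at -0.41, CTSB at -0.22 and CTSC at -0.15. CSTB (0.38, SE 0.041, adjusted p = 4.8e-05) and CTSH (0.29, SE 0.029, adjusted p = 3.6e-05) stood higher with the inhibitor. The groups did not overlap for any member, which was so for 60.9% of all tested genes. Over 20 alternatives all 10 directions held, and all 10 calls held except at a minimum of 2-fold, where CTSZ alone was called.

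With overexpression of STK17B, members were called in both directions. Against Vector 4 members were higher (26.6% of all genes) and 2 lower (10.3%), where 36.8% were called in either direction, with a median of 0.06, against 0.08 over all genes. CTSB had 584 and 592 TPM with overexpression, against 344 and 345 TPM in Vector (0.77, SE 0.028, adjusted p = 2.4e-07). CTSZ had 20.5 and 19.9 TPM, against 9.87 and 8.58 TPM in Vector (1.05, SE 0.098, adjusted p = 5.9e-05). CST3 had 144 and 158 TPM, against 117 and 119.7 TPM in Vector (0.35, SE 0.053, adjusted p = 9.9e-04). CTSD had 109 and 117 TPM, against 94.98 and 94.96 TPM in Vector (0.25, SE 0.049, adjusted p = 0.0036), which did not pass with median-of-ratios scaling (0.15, adjusted p = 0.085).

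CTSS and CTSH were lower with overexpression, and the rest did not pass. CTSS had 31.0 and 30.4 TPM with overexpression, against 37.6 and 37.8 TPM in Vector; it fell by 0.29 (SE 0.045, adjusted p = 0.0011). CTSH had 113 and 119 TPM, against 133 and 139 TPM in Vector, and fell by 0.22 (SE 0.034, adjusted p = 9.7e-04). Intervals for CTSA (0.01, -0.10 to 0.12), CTSL (-0.01, -0.16 to 0.14), CTSC (-0.04, -0.12 to 0.05) and CSTB (0.11, 0.00 to 0.21) lay within 0.21 of 0. With median-of-ratios scaling CTSC was called lower (-0.14, adjusted p = 0.014). Of all calls 72.1% were higher, compared with 44.9% under median-of-ratios and 46.3% under quantile scaling. Set against the libraries taken as shControl, CTSB (1.67), CTSZ (1.98), CST3 (0.79), CTSL (0.48), CTSD (0.45) and CTSA (0.37) were higher, CTSH (-0.21) and CTSC (-0.10) were lower, and CTSS did not pass (0.10, adjusted p = 0.075). These 6 higher and 2 lower members compare with 44.9% of all genes higher and 13.7% lower in that setting.

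CTSZ, CTSB, CTSD and CST3 were thus higher both where STK17B was lowered and where it was raised, each against its own control, and CTSH was lower in both. The knockdown difference minus the overexpression difference tests whether the 2 manipulations moved a member unequally. It was positive for 6 members (11.4% of all genes) and negative for 1 (18.5%). CTSL (1.05, SE 0.088), CTSS (0.97, SE 0.060), CTSZ (0.95, SE 0.13), CTSA (0.92, SE 0.065), CTSC (0.34, SE 0.049) and CTSD (0.28, SE 0.064) rose more with the hairpins, with adjusted p between 6.8e-06 and 0.010. CTSB rose more with overexpression (-0.36, SE 0.037, adjusted p = 1.1e-04). CTSS is the member called in opposite directions, higher with the hairpins and lower with overexpression. CTSH (0.10, adjusted p = 0.13), CST3 (0.08, adjusted p = 0.43) and CSTB (-0.15, adjusted p = 0.095) did not pass. CTSH passed with median-of-ratios (0.17, adjusted p = 0.027) and quantile scaling (0.14, adjusted p = 0.041), and CSTB passed without sh2 replicate 2 (-0.19, adjusted p = 0.024).

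This contrast uses both controls, so the assignment of their columns enters it on both sides. CTSA (0.21), CTSC (0.46) and CTSS (0.19) stayed positive and CTSB (-2.16) negative, but CTSZ turned to -0.91 and CST3 to -0.80, and CTSL (0.07) and CTSD (-0.13) did not pass. Of all calls 38.0% were positive on the deposited scale, compared with 55.1% under median-of-ratios scaling.

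**Figure D3:**
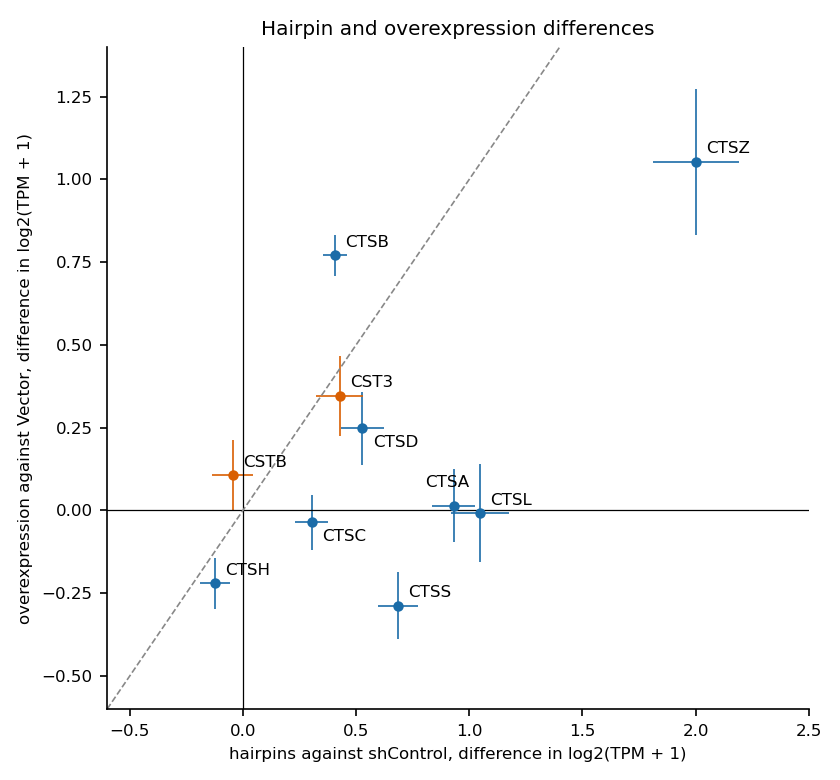
Each member's difference with the hairpins against shControl (horizontal axis) and with overexpression against Vector (vertical axis), in log2(TPM + 1) with 95% intervals; blue marks cathepsins, orange cystatins, and the dashed line equal differences. CTSZ lies far to the right (2.003 and 1.05), CTSB above the line (0.41 and 0.77), and CTSS below 0 on the vertical axis (0.68 and -0.29).

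The 2 controls themselves differed in most members. Vector against shControl had 7 members higher (21.4% of all genes) and none lower (7.86%), with a median of 0.37, against 0.09 over all genes. CTSB had 344 and 345 TPM in Vector, against 185 and 183 TPM in shControl (0.90, SE 0.028, adjusted p = 4.0e-07). CTSZ had 9.87 and 8.58 TPM, against 4.59 and 4.14 TPM (0.93, SE 0.098, adjusted p = 2.0e-04). CTSL (0.49), CST3 (0.44), CTSS (0.39), CTSA (0.36) and CTSD (0.20) were also higher in Vector. The CTSD call was lost without either Vector library (0.20) or shControl replicate 2 (0.18). CTSC (-0.06), CTSH (0.01) and CSTB (-0.02) did not pass. With median-of-ratios scaling CTSC was called lower (-0.15, adjusted p = 0.012) and CTSD was not called (0.11, adjusted p = 0.18). Of all calls 73.1% were higher in Vector, compared with 47.1% under median-of-ratios scaling. Differences of up to 0.93 in these genes thus occurred between cells labelled as untreated and WT.

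Protease and inhibitor transcripts were summed in each library to show the balance, which scaling of a library leaves unchanged. The 6 cysteine cathepsins summed to 640.1 and 613 TPM with sh1, 605 and 608 TPM with sh2, 552 and 551 TPM with the inhibitor, 880.1 and 899 TPM with overexpression, 659 and 669 TPM in Vector, and 494 and 482 TPM in shControl. Overexpression stood far above the rest, and shControl was lowest. CTSB made up 66.4% and 65.9% of that sum with overexpression, 52.2% and 51.6% in Vector, and between 37.5% and 40.2% in the other groups. The ratio of that sum to CST3 plus CSTB was 0.744 and 0.692 with sh1 and 0.653 and 0.606 with sh2. It was 0.480 and 0.497 with the inhibitor and 0.846 and 0.885 with overexpression, against 0.718 and 0.706 in Vector and 0.537 and 0.532 in shControl. Inhibitor libraries had the lowest ratio and overexpression libraries the highest, and neither overlapped another group. CST3 made up 7.31% and 8.34% of the 2 cystatin transcripts with the inhibitor and between 9.40% and 15.5% elsewhere. These sums are descriptions of transcripts and carry no test.

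**Figure D4:**
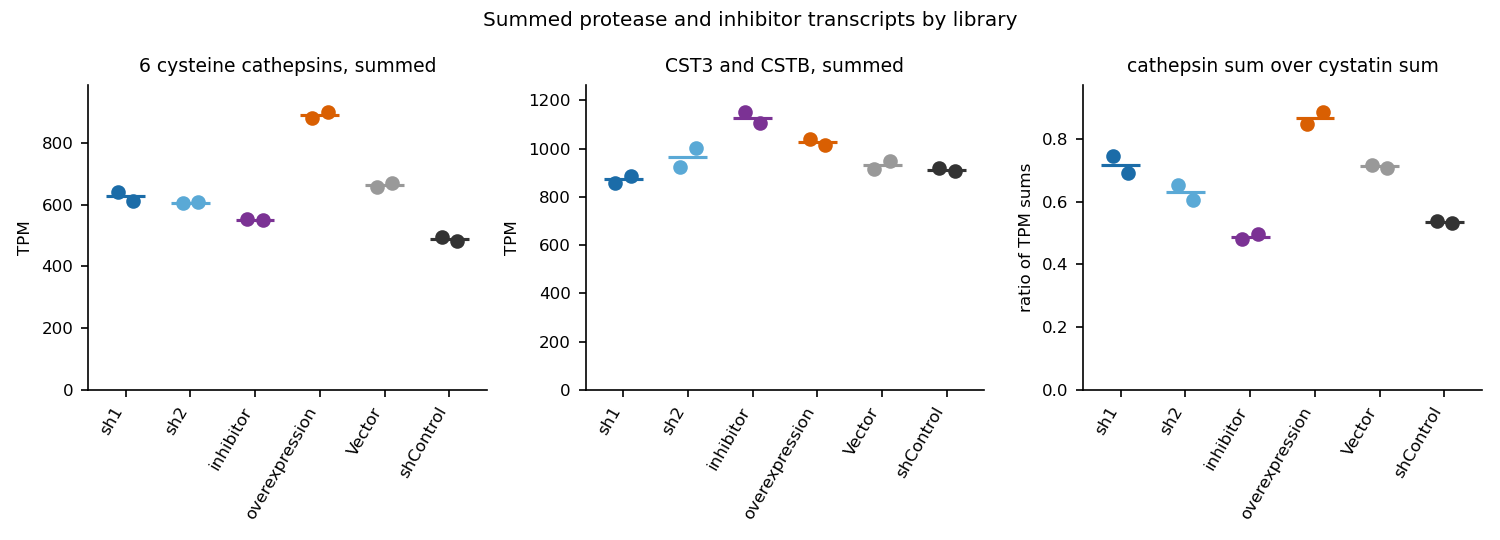
Sum of TPM of the 6 cysteine cathepsins (left), of CST3 and CSTB (middle) and the ratio of the 2 sums (right), with 1 point per library and a line at the group mean (n = 2), axes from 0. The ratio is highest with overexpression (0.846 and 0.885) and lowest with the inhibitor (0.480 and 0.497).

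Over the 12 libraries the members did not share 1 pattern. Pearson correlations of log2(TPM + 1) between the 45 pairs ran from -0.84 to 0.98, and they describe 6 groups of 2 rather than 12 independent samples. CTSD and CTSZ (0.98), CTSA and CTSL (0.93), CTSA and CTSS (0.93), and CTSL and CTSS (0.92) ran closest together. CTSB ran with CST3 (0.89) and hardly with CTSA (-0.02). CTSH ran against CTSZ (-0.84), and CSTB had a positive value with CTSH alone (0.59). Among 9015 other genes with a mean of at least 5 TPM, the closest to CTSB was GRN (0.99), the gene of the lysosomal protein progranulin. GRN had 223 and 219 TPM with overexpression, against 174 and 165 TPM in Vector. The closest to the others were ADAM8 for CTSA (0.99), RENBP for CTSZ (0.99), HLA-DQB2 for CTSL (0.98), PON2 for CTSS (0.97), NPL for CTSC (0.98), CTSZ for CTSD (0.98), GEMIN5 for CTSH (0.98), MOAP1 for CST3 (0.99) and SAFB for CSTB (0.98). The libraries of these correlations share their 6 groups, so the values say which levels run alike and no more.

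**Figure D5:**
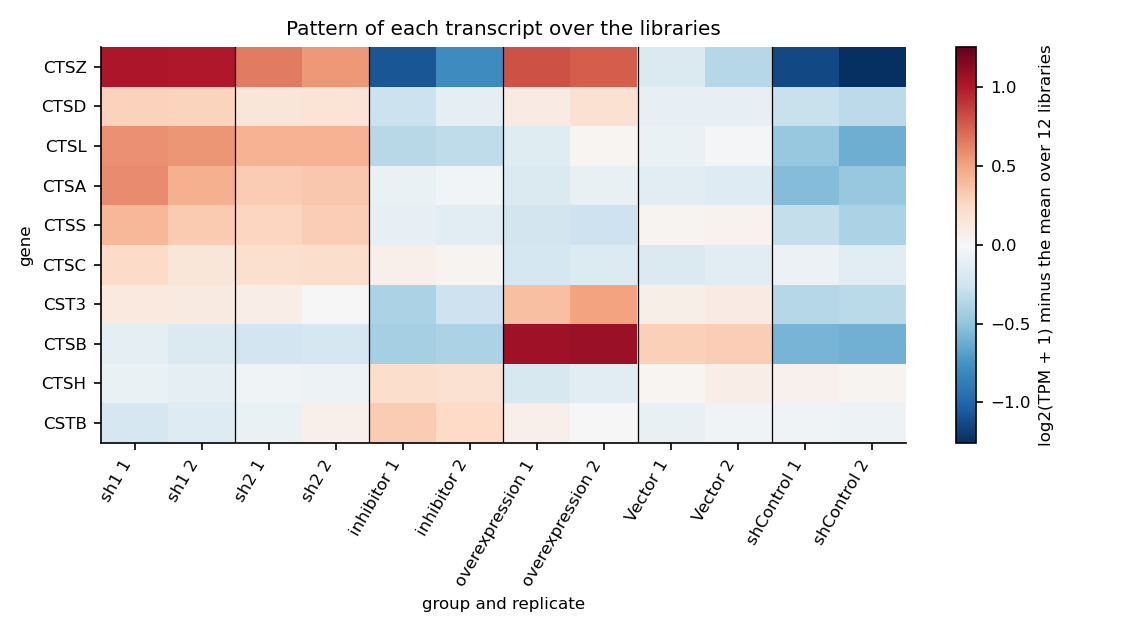
Colour shows log2(TPM + 1) of each member minus its mean over the 12 libraries, by group and replicate (red above, blue below the mean). CTSL, CTSA, CTSS and CTSC are highest in the 4 hairpin libraries, CTSD with sh1, CTSB and CST3 with overexpression, and CTSH and CSTB with the inhibitor.

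The levels can be ordered for each member, with neighbours that overlap named. In the comparisons of 1 group with 1 other, 47.9% (sh2 against sh1) to 71.6% (sh1 against shControl) of all tested genes were without overlap. An order without overlap is therefore common in these data. CTSA ran from shControl through Vector and overexpression, which overlapped, to the inhibitor, sh2 and sh1. CTSB ran from shControl through the inhibitor, sh2, sh1 and Vector to overexpression, with no overlap between neighbours. CTSZ ran from shControl through the inhibitor, Vector, sh2 and overexpression to sh1, also without overlap. CTSL ran from shControl through the inhibitor to overexpression and Vector, which overlapped, and then sh2 and sh1. CTSS ran from shControl through overexpression, the inhibitor, Vector and sh2 to sh1 without overlap. CTSC ran from overexpression and Vector, which overlapped, through shControl and the inhibitor to sh1 and sh2, which overlapped. CTSD ran from shControl through the inhibitor and Vector to overexpression and sh2, which overlapped, and sh1. CTSH ran from overexpression through sh1 and sh2 to shControl and Vector, which overlapped, and the inhibitor. CST3 ran from shControl and the inhibitor, which overlapped, through sh2 and Vector, which overlapped, and sh1 to overexpression. For CSTB, sh1 was lowest and the inhibitor highest, while Vector, shControl, sh2 and overexpression each overlapped the next.

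Other genes of the pathway, from lists drawn up by function, were counted in the same fits. Their counts are read beside the 26.2% of all genes higher and 20.2% lower with the hairpins, and 28.0% and 11.8% with the inhibitor. With the columns exchanged those shares are 18.6% and 29.4% with the hairpins, and 26.0% and 27.0% with the inhibitor. Of 6 tested cathepsins and other lysosomal peptidases outside the members, 5 were higher with the hairpins and 1 lower, but exchanged 1 and 2. CTSO (0.72, exchanged 0.44) was higher and CTSV (-0.46, exchanged -0.59) lower against either control. TPP1, a tripeptidyl peptidase (0.70), and CTSF (0.61) rose over shControl, but stood at 0.09 and 0.06 with the columns exchanged. With the inhibitor 2 were higher and 2 lower, and exchanged 1 and 4. CAST, which encodes the calpain inhibitor calpastatin and was the 1 tested gene of 13 other inhibitors, fell with the hairpins (-0.41, exchanged -0.57).

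Lysosomal hydrolases and their partners were higher with the hairpins in 15 of 19 cases and lower in 1, but with the columns exchanged in 4 and 5. HEXA, a hexosaminidase subunit (0.52, exchanged 0.29), was higher against either control. PSAP, the precursor of the saposins, was at 0.58 and exchanged at -0.04, and NPC2, which exports cholesterol, at 0.61 and exchanged at -0.21. With the inhibitor 5 were higher and 2 lower, but none and 13 with the columns exchanged, where PSAP was at -0.42, against 0.20 as mapped. Of 13 lysosomal membrane proteins 9 were higher with the hairpins and 1 lower, and exchanged 5 and 3. CLN3 (0.60, exchanged 0.48), LAMP1 (0.51, exchanged 0.58) and TMEM192 (0.42, exchanged 0.27) were higher against either control, and LAPTM5 (0.56, exchanged 0.04) was not. Of 16 vacuolar ATPase subunits, which acidify the lysosome, 9 were higher and 1 lower with the hairpins, and exchanged 8 and 2. With the inhibitor 9 were higher and none lower, and exchanged 7 and 2. ATP6V0D1 (0.50 with the hairpins, 0.43 with the inhibitor) and ATP6V1D (0.44 and 0.50) were higher against either control. ATP6AP1 (0.50, exchanged 0.34) and ATP6V0C (0.38, exchanged 0.35) were so with the hairpins alone. With the inhibitor ATP6AP1 was not called (0.08, exchanged -0.08), and ATP6V0C was called over shControl (0.14) but not exchanged (0.11).

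Of 16 genes of mannose 6-phosphate tagging and sorting, 6 were higher and 3 lower with the hairpins, and exchanged 3 and 3. With the inhibitor 10 were higher and 1 lower, and exchanged 6 and 4. VPS26A, a retromer subunit, rose with the hairpins (0.45, exchanged 0.47), NAGPA, the uncovering enzyme, rose too (0.35, exchanged 0.47), and GNPTAB, the catalytic subunit of the tagging enzyme, fell (-0.40, exchanged -0.63). Of 11 tested genes of the TFEB family and of lysosomal nutrient control, 5 were higher and 1 lower with the hairpins, and exchanged 3 and 4. FLCN, which restrains these factors through the Rag GTPases (0.66, exchanged 0.48), and RRAGA (0.49, exchanged 0.31) were higher against either control, and RRAGD (-0.22, exchanged -0.37) lower. RRAGC (0.23) was not called with the columns exchanged (0.07). TFEB itself, named after its value was seen, stood at -0.02 with the hairpins (adjusted p = 0.84). With the inhibitor 5 of the 11 were higher and 1 lower, and exchanged 3 and 2. There RRAGC (0.55, exchanged 0.38) was higher and RRAGD (-0.58, exchanged -0.73) lower against either control.

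Class II genes and their processing partners were counted because CTSS acts in that pathway. Of 13 such genes 10 were higher and 1 lower with the hairpins, and the counts were the same with the columns exchanged. With overexpression none was higher and 8 were lower, but exchanged 5 and 6. Of all genes 26.6% were higher and 10.3% lower with overexpression, and exchanged 44.9% and 13.7%. HLA-DOA (0.97, exchanged 0.81), HLA-DQA1 (0.77, exchanged 0.50) and HLA-DMB (0.63, exchanged 0.58) rose with the hairpins, and IFI30, a lysosomal thiol reductase, fell (-0.41, exchanged -0.85). With overexpression HLA-DMB was lower against either control (-0.31, exchanged -0.25), while HLA-DQA1 turned (-0.13, exchanged 0.15). HLA genes resemble one another, so reads may be divided between them. Of 11 granule proteases that CTSC activates, PRTN3 alone was tested. It reached 1 TPM in 5 of 12 libraries, so its values lie near the floor. It rose with the inhibitor, to 3.07 and 4.32 TPM, against 2.21 and 1.86 TPM in shControl (0.62, exchanged 1.36). It fell with overexpression, to 0.32 and 0.11 TPM, against 0.81 and 0.82 TPM in Vector (-0.59, exchanged -1.33). All libraries of that comparison lay below 1 TPM. With the hairpins it was at -0.72, but at 0.02 with the columns exchanged, and it was lower in Vector than in shControl (-0.74).

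Markers of other cells were counted because cathepsins are abundant in myeloid cells. Of 13 myeloid markers 3 were tested, and none was called with the mean of the hairpins, the inhibitor or overexpression. FCER1G was called higher with sh2 alone (0.68, adjusted p = 0.037) and in knockdown minus overexpression (0.89, adjusted p = 0.044), and lower with the inhibitor when the columns were exchanged (-0.60, adjusted p = 0.045). The summed myeloid level was 2.98 to 3.97 TPM with sh1, 4.74 to 5.86 TPM with sh2, 3.05 to 3.56 TPM with the inhibitor, 4.52 to 5.70 TPM with overexpression, 3.99 to 5.27 TPM in Vector and 3.97 to 7.26 TPM in shControl. CD14, CSF1R and CD163 stayed below 0.28 TPM throughout. Markers that reached 1 TPM in some library were S100A9 (at most 2.47 TPM), CD68 (1.71), FCER1G (1.52), LYZ (1.42) and ITGAM (1.37). S100A9 and LYZ peaked in shControl replicate 1, against 0.46 TPM for each in shControl replicate 2. No fibroblast or erythroid marker was tested. The fibroblast marker COL1A1 also peaked in shControl replicate 1 (2.17 TPM, against 0.22 TPM in replicate 2).

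Of 10 T and NK markers CD7 and CD3E were tested, and both were higher with hairpins (0.72 and 0.59), inhibitor (0.71 and 0.41) and overexpression (0.92 and 0.77). With the columns exchanged CD7 was not called with the hairpins (0.03) or the inhibitor (0.02). CD3D and CD3G were at 0 in all libraries. The list, nearly all CD7, summed to 244 to 259 TPM with sh1, 220.4 TPM in both sh2 libraries, 227 to 241 TPM with the inhibitor, 417 to 450.4 TPM with overexpression, 222 to 235 TPM in Vector and 143 TPM in both shControl libraries. Plasma cell markers, of the lineage of KMS11, were lower in 8 of 9 cases with the hairpins (20.2% of all genes). They were lower in 8 of 9 with the inhibitor (11.8%) and 7 of 9 with overexpression (10.3%). SDC1, the marker with the largest called difference over the hairpins and the inhibitor, was at -0.98 with the hairpins (exchanged -0.79). It was at -2.13 with the inhibitor (exchanged -1.95) and -1.06 with overexpression (exchanged -1.25). With the columns exchanged 8 markers were lower and none higher with the hairpins, where 29.4% of all genes were lower. Exchanged, 7 were lower and 2 higher with the inhibitor (27.0% of all genes lower). With overexpression 5 were lower and 1 higher on exchange (13.7% of all genes lower). The plasma cell sum was 1588 to 1590.4 TPM with sh1, 1869 to 1875 TPM with sh2, 1744 to 1776 TPM with the inhibitor, 2138 to 2146 TPM with overexpression, 2567 to 2568 TPM in Vector and 2343 to 2364 TPM in shControl. Of 6 mature B cell markers SPIB (0.62, exchanged 0.82) and BACH2 (0.27, exchanged -0.02) were tested and higher with the hairpins over shControl. The part of these markers in the cathepsin results was not tested.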

How the data were processed

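The authors deposited TPM values, per the column sums and the table's name, 1 per gene and library, scaled to 1 total in every library. Per the submitters' processing notes, the tools were RSEM 1.3.1, HISAT, DESeq2 1.4.5 and Bowtie2 2.3.4.3, with build GRCh38.p13; what each did is not given in the sources used here. Per the labels' protocols, RNA was poly(A) selected and sequenced in stranded DNBSEQ libraries. Counts were not used here, so depth is unknown.

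The 12731 tested genes reached 1 TPM in 2 or more libraries. Values were log2(TPM + 1), which understates changes of low genes. The limma package (3.58.1, R 4.3.3) fitted the mean of each of 6 groups over all 12 libraries, using trended eBayes, with p adjusted by Benjamini-Hochberg over all tested genes in each of 9 comparisons; SDs have n = 2. Other lists are named by their up to 4 largest called differences with the hairpins or the inhibitor. A gene that this rule names is not reported here. In simulated data of the same size, 98.5% of changes of 1 log2 unit were recovered in each of the hairpin, inhibitor and overexpression comparisons. Changes of 0.5 were recovered in 95.5%, 91.0% and 88.1%, and 2.97%, 6.31% and 7.28% of calls were false, in that order. The simulation changed 67 genes by 0.5, 67 by 1 and 66 by 2, drawn from better expressed genes. All other genes were equal between groups, with independent noise in each library. In the data 46.3%, 39.9% and 36.8% of all genes were called, so these rates need not hold there. Members and lists were chosen with earlier results of these data known.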

Additional observations from a re-analysis of the deposited data

How the results depend on the processing

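Alternatives were pseudocounts of 0.1 and 0.5, no filter and one at 5 TPM, fitting just the compared groups, 4 other scalings, eBayes without trend and robust eBayes, a minimum of 2-fold, a replicate block, exchanged control columns, and each library left out. Counts of members called moved by more than 1.5 times in these cases. A minimum of 2-fold left 2 members with the hairpins, 3 with sh1, 1 with sh2, 0 with the inhibitor, 1 with overexpression, 0 for Vector against shControl, 1 for the inhibitor against the hairpins and 1 for knockdown minus overexpression, by its own construction. Median of ratios and quantile normalization each left 4 with the inhibitor, where 34.9% and 31.8% of all genes were called. The 5 TPM filter gave 1 between sh2 and sh1. The cause of these changes in count was not tested. For the 2-fold and 5 TPM counts no share of all genes is given here. Quantile scaling also moved the share of higher calls over all genes, to 46.8% with sh2, 54.1% for sh2 against sh1, 48.4% for Vector against shControl and 52.0% for knockdown minus overexpression.

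Among differences called in either setting, directions turned only with exchanged control columns; uncalled values near 0 also changed sign under other settings (CTSA with overexpression down to -0.09, CTSH for Vector against shControl to -0.08, CSTB with sh2 to -0.03 and with the hairpins up to 0.006), and CTSD with the inhibitor, uncalled, went to -0.10 on exchange. With the hairpins CTSB went to -0.49 and CST3 to -0.0149; with sh1 CTSB to -0.45; with sh2 CTSB to -0.53 and CST3 to -0.054. With the inhibitor CTSB went to -0.72, CTSL to -0.28, CTSS to -0.16, CTSZ to -0.66 and CST3 to -0.42. With overexpression CTSL went to 0.48 and CTSS to 0.10. Knockdown minus overexpression went to -0.13 for CTSD, -0.91 for CTSZ and -0.80 for CST3. Vector against shControl turns by construction: CTSA -0.36, CTSB -0.90, CTSD -0.20, CTSL -0.49, CTSS -0.39, CTSZ -0.93 and CST3 -0.44.

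Same-numbered libraries did not deviate together: the correlation of deviations passed 0.1 in 1 of 15 group pairs (-0.10 to 0.14). The replicate block left 9 members called with the hairpins, 9 with sh1, 8 with sh2, 7 with the inhibitor and 6 with overexpression. Of all tested genes it left 45.3%, 44.0%, 34.2%, 38.7% and 35.9% called, in that order. Having 2 libraries per group and unknown depth limits precision.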

Other observations

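LGMN encodes legumain, an asparaginyl endopeptidase that processes several cathepsins. It was singled out after its values were seen. LGMN had 375 and 390.6 TPM with overexpression, against 214 and 214.9 TPM in Vector (0.83, SE 0.034, limma adjusted p = 4.3e-07). It had 114 and 119 TPM with the inhibitor, against 159 and 155 TPM in shControl, and fell by 0.43 (SE 0.034, limma adjusted p = 2.1e-05). With the hairpins it had 184 and 175 TPM for sh1 and 178 and 176 TPM for sh2, a smaller rise over shControl (0.18, SE 0.029, limma adjusted p = 8.0e-04). With the control columns exchanged LGMN was at -0.27 with the hairpins, -0.87 with the inhibitor and 1.28 with overexpression, so only its hairpin direction turned.

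The enzymes that CTSA protects were likewise chosen after their values were seen. GLB1, beta-galactosidase, rose with the hairpins (0.33, SE 0.051, limma adjusted p = 7.1e-04), but stood at 0.0016 with the control columns exchanged (limma adjusted p = 0.98). NEU1, the sialidase, stood at 0.02 with the hairpins (SE 0.034, limma adjusted p = 0.73) and fell by 0.22 with overexpression (SE 0.039, limma adjusted p = 0.0019), where CTSA did not pass; exchanged it was at -0.28.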
